A study of Homo sapiens with 3 samples.

Results

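The nm23-H1 transfectant of CAL 27 cells was set directly against the nm23-H2 transfectant, gene by gene. The genes compared were all those with a probe set annotated to a single gene symbol, 11963 genes of the 13119 named by any probe set on the array. Of these, 7628 were measured, which means that the gene's probe set lay above a floor of 28.3 signal units on at least 1 array of the pair. The other 4335 did not pass the floor on either array, and no difference can be read for them. All differences below are nm23-H1 minus nm23-H2 on the log2 scale of scaled signals, so a positive value means a higher signal with nm23-H1.

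NME1 encodes Nm23-H1 and NME2 encodes Nm23-H2, closely related subunits of nucleoside diphosphate kinase, the enzyme that passes phosphate from nucleoside triphosphates to diphosphates. NME1 was described early as a suppressor of metastasis, and the NME2 product has also been described as a DNA-binding regulator of transcription. In squamous epithelium, growth factor ligands, stress signals and the differentiation programme of keratins and cornified envelope proteins are among the best known transcriptional outputs.

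CAL 27 is a human cell line grown out of a tongue tumour, a squamous cell carcinoma graded G3, poorly differentiated. The nm23-H1 line was stably transfected with pEGFP-nm23-H1 and made Nm23-H1 joined to green fluorescent protein (GFP). The nm23-H2 line was stably transfected with pEGFPC1-nm23-H2, and the third line carried the empty vector and made GFP alone. All were grown in DMEM with fetal bovine serum. Each line was hybridised to 1 array of 22283 probe sets, so the differences are descriptive, without replicates or p-values. The study's design text speaks of clones for the nm23-H1 and vector lines and does not describe the nm23-H2 line. Construct, cell line and hybridisation coincide on each array and cannot be told apart. The vector line is given beside them and belongs to neither side of the comparison.

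The arrays also differed in technical measures. As deposited, their median signals were between 26.5 and 29.6, and between 47.4% and 51.6% of probe sets lay above the floor after scaling. The 18 probe sets for bacterial transcripts added before hybridisation were 1.57-fold to 3.35-fold brighter on the nm23-H2 array than on the nm23-H1 array (median 2.09-fold, as deposited), while the nm23-H1 and vector arrays had a median ratio of 1.01. All 3 descriptions name ENZO for the amplification of cRNA, and the label protocol of the nm23-H2 sample alone also names the Affymetrix in vitro transcription labelling kit, so the labels do not settle whether its labelling differed. The 3′ to 5′ signal ratio was 0.878 with nm23-H1 and 1.04 with nm23-H2 for GAPDH, and 1.41 and 1.90 for ACTB. Their part in the differences below was not tested. All 7 squamous epithelial markers with a probe set were above the floor on both arrays, among them KRT5 (8543 signal units with nm23-H1 and 11699 with nm23-H2) and KRT14 (8932 and 12889). Of 9 leukocyte markers 5 passed the floor on at least 1 array, none above 58.0 signal units, with PTPRC at 2.67 and 3.26 and sums over the list of 251 and 104. The sums were 86.7 and 54.3 over 6 endothelial markers (1 above the floor), 163 and 153 over 8 fibroblast markers (2 above the floor, COL1A1 below it) and 117 and 109 over 4 melanocyte markers (2 above the floor).

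Each transfected gene was higher on its own array. The probe set of NME1 read 2379 signal units with nm23-H1, 1132 with nm23-H2 and 1519 with vector, a difference of 1.07 or 2.10-fold between the transfectants. The single probe set of NME2, which also matches the NME1-NME2 read-through transcript and was therefore kept out of the gene counts, read 2323, 4845 and 2272 signal units. Its difference was -1.06, or 2.09-fold higher with nm23-H2. The differences of NME1 and NME2 had opposite signs, and the vector array lay between the pair for NME1 and beside the nm23-H1 array for NME2. Whether each passed 2-fold depended on the scaling: NME1 was at 0.85 with the values as deposited, and NME2 at -0.96 with a common median, -0.83 after quantile normalization and -0.19 with the arrays matched on the hybridisation controls. Of the other kinase genes of the family, NME3 read 170.1 and 209 signal units, and NME4 215 and 258, and NME6 differed by 0.43, all less than 2-fold. No file places the probes relative to the transfected coding sequence, so transcripts of the transfected and the resident gene were not separated.

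In the whole comparison, 300 genes were at least 2-fold higher with nm23-H1, 3.93% of the 7628 measured, and 304 were at least 2-fold higher with nm23-H2, 3.99%. Of these, 80 and 63 are lower bounds, with the dimmer signal under the floor, and such values are written "at least". The large differences lay more on the nm23-H2 side. There, 48 genes were at least 4-fold and 14 at least 8-fold higher, against 17 and 3 on the nm23-H1 side. The median of all measured genes was 0.10, with quartiles of -0.25 and 0.45. How evenly the 2-fold calls split depended on the scaling: 234 genes higher with nm23-H1 and 339 higher with nm23-H2 after quantile normalization, 171 and 499 as deposited, 404 and 256 with a common median above the floor, and 2898 and 72 with the arrays matched on the hybridisation controls. The median of all genes moved from 0.10 to 0.81 with that last choice, to -0.09 as deposited, to 0.19 with the common median and to 0.04 with quantile normalization. Directions of gene groups are therefore given relative to the median of all genes. Counts of called genes in a list are to be read against the 3.93% and 3.99% of all measured genes. An error could be taken only from how far probe sets for 1 gene disagreed, with an SD of 0.39 (1619 pairs), which covers neither cultures nor hybridisations. Among the called genes, 144 had another probe set that passed the floor on both, and in 120 of them (83.3%) it pointed the same way, in 40 (27.8%) by 2-fold or more. Values of further probe sets are given below for some genes only, so their absence does not mean agreement.

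**Figure D1:**
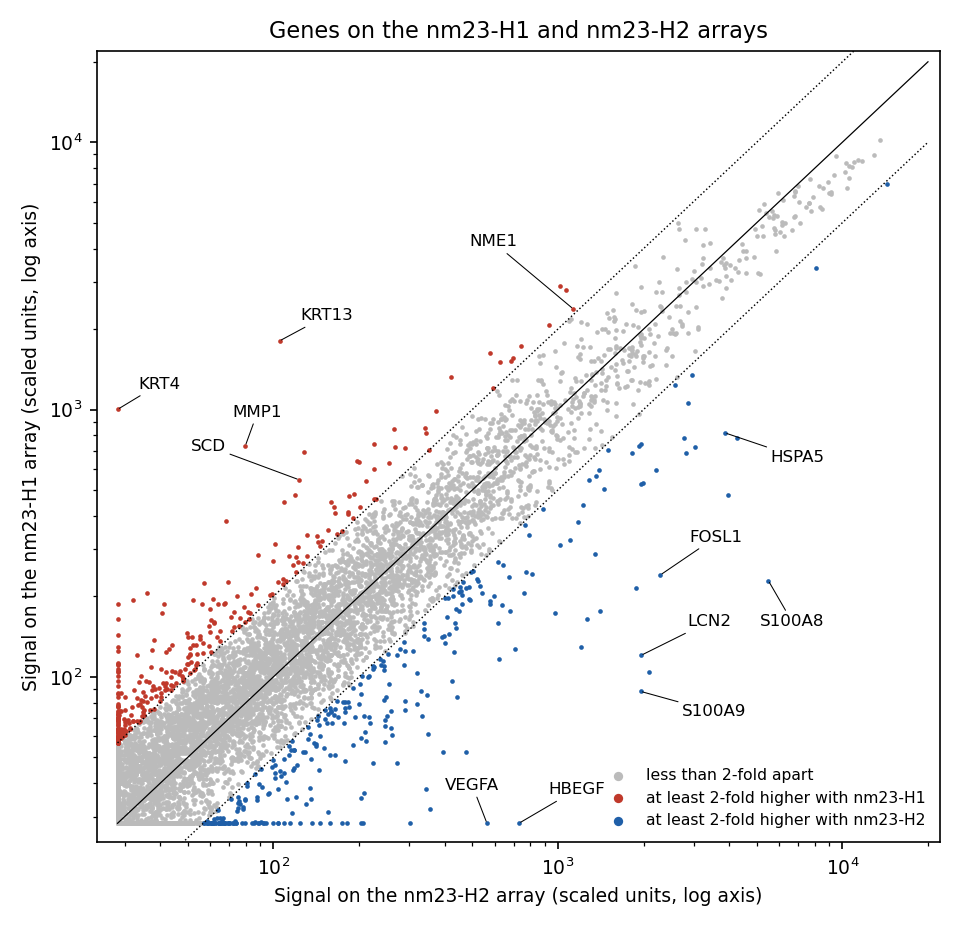
Scaled signal of each of the 7628 measured genes on the nm23-H2 array (x axis, log scale) and the nm23-H1 array (y axis, log scale), 1 point per gene, with signals below 28.3 drawn at that floor. The solid line marks equal signals and the dotted lines 2-fold differences. The blue points, higher with nm23-H2, reach farther from the line in number than the red ones, while KRT4 and KRT13 stand alone at the upper left.

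The vector array lay between the transfectants for most called genes. These genes were chosen because the transfectants lay at least 2-fold apart, and that choice by itself favours a vector signal between them. Among the 300 genes higher with nm23-H1, vector lay between the pair for 231, nearer to nm23-H1 for 146 and nearer to nm23-H2 for 85, above both for 52 and below both for 17. Among the 304 higher with nm23-H2, it lay nearer to nm23-H1 for 146, nearer to nm23-H2 for 85, below both for 52 and above both for 21. These counts rest on 1 vector array, and the share for all measured genes was not counted beside them. Whether the constructs moved genes in opposite directions from vector was not tested.

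The genes with the largest differences higher with nm23-H1 began with a pair of keratins of non-cornified mucosa. KRT4 read 1001 signal units with nm23-H1, 24.7 with nm23-H2, below the floor, and 778 with vector, at least 35.3-fold higher with nm23-H1 than with nm23-H2. KRT13, its partner in the keratin filament, read 1806, 105 and 963 signal units, a 17.1-fold difference. The nm23-H2 array was thus the low one for both, and the second probe set of KRT4 was at the floor on both. MMP1, interstitial collagenase, read 731, 79.6 and 521 signal units (9.18-fold), and STMN1, the microtubule-destabilising protein stathmin, 194, 32.1 and 183 (6.06-fold). CYP1A1, a cytochrome P450 induced through the aryl hydrocarbon receptor, read 206, 36.0 and 218 signal units (5.72-fold). For these genes nm23-H1 and vector lay closer together and nm23-H2 was low. ALPP, placental alkaline phosphatase, showed another order, with 188 signal units against 4.49 with nm23-H2 and 35.8 with vector (at least 6.64-fold). CA2, a carbonic anhydrase, read 383, 67.9 and 174 signal units, and TXNIP, the thioredoxin-binding protein, 692, 128 and 317, with vector between the pair in both. The rest of the 15 were CRIP2 (at least 5.79-fold), HCAR3 (at least 5.04-fold), GET1 (4.59-fold), NUP62, a nuclear pore protein (at least 4.56-fold), SCD (4.45-fold), BMP2 (at least 4.40-fold) and SCNN1A, a subunit of the epithelial sodium channel (4.26-fold). ALPP and HCAR3 have near-identical neighbours in the genome whose transcripts the probe sets may share. The further probe set of NUP62 differed by 0.09 only, and the 2 of SCNN1A by 0.

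On the other side the largest difference was in HBEGF, a ligand of the epidermal growth factor (EGF) receptor. It read 9.74 signal units with nm23-H1, below the floor, 729 with nm23-H2 and 113 with vector, at least 25.7-fold higher with nm23-H2, and its 2 further probe sets differed by -3.94 and 0. S100A8 and S100A9, the subunits of calprotectin, read 229 and 88.2 signal units with nm23-H1, 5493 and 1952 with nm23-H2, and 1904 and 504 with vector. Their differences were -4.59 and -4.47, with vector between the pair, although a further probe set of S100A8 differed by -0.89 only. PI3, the elastase inhibitor elafin, read 104, 2086 and 1419.6 signal units, a difference of -4.32, and LCN2, the iron-siderophore binding protein lipocalin 2, 120.3, 1960.3 and 235 (16.3-fold). Vector was thus near nm23-H2 for PI3 and near nm23-H1 for LCN2. VEGFA, the angiogenic growth factor, read 25.1, 563 and 182 signal units, at least 19.9-fold higher with nm23-H2, and its 3 further probe sets differed by -1.85 to -0.92. The others were DUSP6 (11.1-fold), CHAC1 (at least 10.7-fold), FOSL1 (9.53-fold), PHLDA1 (9.28-fold), TNFAIP3 (9.04-fold), MAFF (9.04-fold), SPRR1A (8.75-fold), SPRR1B (8.33-fold) and HERPUD1 (7.94-fold). Most of them belong to the groups described next.

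**Figure D2:**
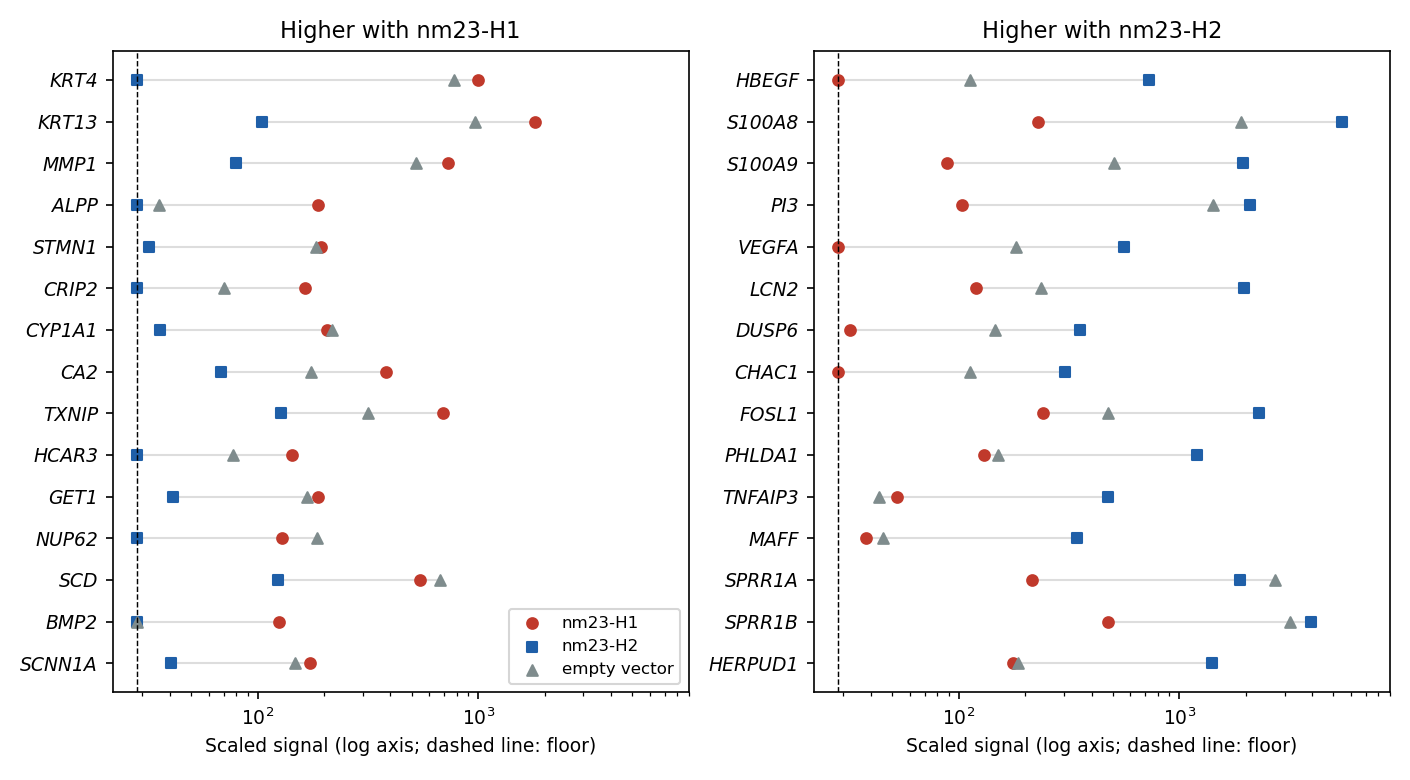
Scaled signal (x axis, log scale) of the 15 genes with the largest difference in each direction on the nm23-H1 (circles), nm23-H2 (squares) and empty vector (triangles) arrays, 1 array each, with values below the floor drawn at the dashed line. In the left panel many triangles sit near the circles, with BMP2 at the floor, while in the right panel most lie between circle and square, with SPRR1A above both and TNFAIP3 below both.

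Most measured outputs of the ERK pathway, and some growth factor ligands, were higher with nm23-H2. Ligands of the EGF receptor family activate RAS and ERK, which induce phosphatases (the DUSP family) that switch ERK off again. Of 14 measured genes of ERK feedback and output, 8 were at least 2-fold higher with nm23-H2 and 0 higher with nm23-H1, with a median of -1.28. DUSP6, the ERK-specific phosphatase, read 32.0 signal units with nm23-H1, 354 with nm23-H2 and 146 with vector, and its 2 further probe sets differed by -3.22 and -1.79. PHLDA1 read 129.6, 1203 and 151 signal units, and IER3, an immediate early gene, 780.2, 4271 and 1071 (5.47-fold), while the 4 further probe sets of PHLDA1 ranged from -2.69 to 0.25. In both, nm23-H2 stood above nm23-H1 and vector, which were close. The phosphatases DUSP1 (4.68-fold), DUSP5 (4.05-fold) and DUSP4 (at least 3.51-fold) and the ETS factors ETV4 (at least 2.54-fold) and ETV5 (2.34-fold) completed the 8. The further probe set of DUSP1 differed by 0. SPRY1 and SPRY4, inhibitors of the same pathway, did not follow, with differences of 0.01 and 0.69. Of the 7 measured receptors and ligands of the EGF family, 3 ligands were higher with nm23-H2 and 0 genes with nm23-H1 (median -0.11). Beside HBEGF, NRG1, neuregulin, read 242, 811 and 244 signal units (3.35-fold) and TGFA 66.9, 160.3 and 77.5 (2.40-fold). The 5 further probe sets of NRG1 ranged from -1.62 to 0, and the 2 of TGFA were at 0. With the mean of all probe sets neither gene reached 2-fold (-0.78 and -0.42). The receptor genes EGFR (1149 and 1239 signal units), ERBB2 (151 and 119) and ERBB3 (58.5 and 39.2) were less than 2-fold apart. MET, the receptor of hepatocyte growth factor and 1 of the genes on a list of metastasis genes linked to Nm23, read 47.4, 223 and 102 signal units (4.71-fold), but its 3 further probe sets ranged from -1.30 to 0.18. On that metastasis list 2 of 22 genes were higher on each side, with the transfected NME1 itself among those higher with nm23-H1. Its median of 0.09 lay so close to that of all genes that its side changed with the scaling.

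Some transcription factors of the immediate early class were also higher with nm23-H2, and others were level. Of 20 measured, 5 were at least 2-fold higher with nm23-H2 and 0 with nm23-H1 (median -0.37). FOSL1, the Fos partner FRA1 of the AP-1 complex, read 240.4, 2291 and 477 signal units, and MAFF, a small Maf protein, 344 with nm23-H2 and 45.4 with vector (9.04-fold higher than with nm23-H1). ATF3, a stress-induced factor, was 4.31-fold higher with nm23-H2, KLF4, a factor of epithelial differentiation, 3.47-fold, and JUNB 2.02-fold. The further probe sets of MAFF and KLF4 differed by -0.80 and -0.17, and JUNB was at -0.94 after quantile normalization. JUND and KLF10 were at 0 and IER2 at 0.15. In 5 of the 20, 1 array was below the floor, so these count as measured only through the array where they were high.

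Some genes of the stress programme of the endoplasmic reticulum (ER) and of amino acid supply were higher with nm23-H2, and others were level. When unfolded proteins collect in the ER, the sensors ATF6, IRE1 and PERK raise chaperones through ER stress response elements, splice XBP1 and raise ATF4, which turns on genes of amino acid supply and cell death. Of 18 measured ER chaperones and folding enzymes, 3 were at least 2-fold higher with nm23-H2 and 0 with nm23-H1, and 17 lay below the median of all genes (list median -0.45). HSPA5, the chaperone BiP, read 818 signal units with nm23-H1, 3865 with nm23-H2 and 757 with vector (4.73-fold). DNAJB9 read 83.7, 443 and 99.5 (5.29-fold) and SDF2L1 124, 432 and 165 (3.48-fold). In all 3 the nm23-H1 and vector arrays lay close together and far below nm23-H2. The second probe set of DNAJB9 was at the floor on both. The folding enzymes P4HB (1916 and 2576 signal units) and PDIA4 (165 and 163) and the lectin chaperone CANX (706 and 601) were less than 2-fold apart. So were HYOU1 (-0.24), HSP90B1 (-0.26) and CRELD2 (-0.01). Of 17 genes of ER-associated degradation and stress sensing, 5 were higher with nm23-H2 and 0 with nm23-H1 (median -0.27): HERPUD1 (177, 1406 and 186 signal units), PPP1R15A, which restarts translation after stress (85.4, 347 and 134), OS9 (at least 2.54-fold), SEL1L (2.13-fold) and XBP1 (216, 451 and 191). The further probe set of OS9 differed by 0.16, and the 3 of SEL1L ranged from -0.76 to 0. On the same list 6 genes lay above the median of all genes, among them DERL1 (0.38), DERL2 (0.29) and EDEM1 (0.29).

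The ATF4 group had more members on the same side. Of 26 measured ATF4 targets and genes of amino acid supply, 9 were at least 2-fold higher with nm23-H2 and 0 with nm23-H1, with a median of -0.67. ATF4 itself read 528, 1958 and 921 signal units (3.71-fold). DDIT3, the pro-apoptotic factor CHOP, read 127, 704 and 125 (5.54-fold), and TRIB3, a pseudokinase that restrains ATF4, 724, 3026 and 267 (4.18-fold). CHAC1, which degrades glutathione, read 20.2, 303 and 113 signal units. For DDIT3 the transfectant with nm23-H1 was at the vector level, while for TRIB3 it was above it and for CHAC1 below it. DDIT4 (3.73-fold), STC2 (3.71-fold), CEBPB (2.69-fold), MTHFD2 (2.26-fold) and CTH (at least 2.02-fold) were the other members past 2-fold. The serine synthesis genes PHGDH and PSAT1 lay the other way, with differences of 0.47 and 0.43. Of 16 cytosolic tRNA synthetases, which load amino acids on tRNA, only TARS1 passed 2-fold (101, 217 and 166 signal units), but 15 lay below the median of all genes and the list median was -0.76. Their differences ran from -1.10 for TARS1 and -0.96 for GARS1 (791 and 1544 signal units) through -0.76 for AARS1 (691 and 1169) to -0.19 for LARS1 and 0.03 for EPRS1. IARS1 was the member above the median of all genes, at 0.25.

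The sequence before the start site of the genes in these groups was read from the RefSeq promoter table of GRCh38.p14, which held 6310 of the 7628 measured genes, taking the 250 bases before the start and searching both strands. The ER stress response element, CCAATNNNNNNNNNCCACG, was found in 22 of the 27305 promoters in the table (0.0806%) and in 10 of the measured genes (0.158%). Its first letters are also the CCAAT box. Those 10 genes ran from HSPA5 (-2.24), XBP1 (-1.06), ALG12 (-0.97) and CALR (-0.95) through FICD (-0.43), HSP90B1 (-0.26), CRELD2 (-0.01) and SERP1 (0.10, level with the median of all genes) to CANX (0.23) and GLRA2 (0.35). The stretches of HSPA5 (chr9:125241383-125241417, minus strand) and XBP1 (chr22:28800595-28800629, minus strand) are shown because both genes were at least 2-fold higher with nm23-H2, with the element in capitals.
HSPA5: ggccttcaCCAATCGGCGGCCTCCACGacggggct
XBP1: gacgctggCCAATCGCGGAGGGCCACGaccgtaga
The element ran from base -66 to -48 in HSPA5 and from -52 to -34 in XBP1, counted back from the start site. The C/EBP-ATF composite site TTGCATCA, a site of ATF4 dimers, was in 0.820% of all promoters and in 0.491% of those of measured genes. It was in 1 of the 236 promoters of genes higher with nm23-H1 and in 4 of the 240 of genes higher with nm23-H2. Of these 4, PRSS2 and PRSS3 are outside the stress groups. Among the 21 promoters of measured genes on the ATF4 list, only that of CHAC1 held it. CHAC1 (chr15:40953254-40953277, plus strand) and HERPUD1 (chr16:56931958-56931981, plus strand) belong to the stress groups, and the site is in capitals.
CHAC1: ccctgccgTTGCATCActcctgcc
HERPUD1: gcggcgggTTGCATCAgcccgtgc
A match describes the letters present and not the binding of a factor.

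Some inhibitors and targets of NF-kB were on the nm23-H2 side as well. NF-kB dimers are held in the cytoplasm by inhibitors whose genes they induce in turn. Of 15 measured subunits and inhibitors, 5 were at least 2-fold higher with nm23-H2 and 0 with nm23-H1, with a median of -0.15, near that of all genes. TNFAIP3, the deubiquitinase A20, read 52.5 signal units with nm23-H1, 475 with nm23-H2 and 43.6 with vector, and its second probe set differed by -2.49. NFKBIA, the inhibitor IkB-alpha, read 289, 1345 and 419 (4.66-fold), and TNIP1, a partner of A20, 205, 759.9 and 129 (3.71-fold). RELB was 3.24-fold and TNIP2 2.22-fold higher, though the further probe set of TNIP2 differed by -0.23. RELA (605 and 601 signal units) and NFKB2 (73.2 and 54.2) were less than 2-fold apart. The other inhibitors on the list, NFKBIE (0.12), NFKBIB (0.17) and CYLD (0.31), did not lie on that side. Of 13 cytokines and chemokines measured, 6 were higher with nm23-H2 and 1 with nm23-H1. In 10 of the 13, 1 array was below the floor, so these count as measured only through the array where they were high, and their median of -0.79 is itself a bound, that of CXCL8 (3.79 and 49.2 signal units). IL1B read 96.7, 425 and 97.6 signal units (4.39-fold), IL1RN, the receptor antagonist, 61.0, 349 and 125 (5.72-fold), and IL1A 21.1, 174 and 34.1 (at least 6.15-fold). IL1A has a second probe set at the floor on both arrays, and those of IL1RN ranged from -2.16 to 0. CXCL2 (at least 3.02-fold), IL36G (at least 2.61-fold) and CXCL1 (at least 2.39-fold) were below the floor with nm23-H1. CXCL10, an interferon-induced chemokine, was the exception, with 57.2 signal units against 23.8 (at least 2.02-fold higher with nm23-H1).

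The kappaB consensus was found in 9.57% of all promoters in the table and in 11.9% of those of measured genes. It was in 36 of the 240 promoters of genes higher with nm23-H2 (15.0%) and in 30 of the 236 of genes higher with nm23-H1 (12.7%), shares that lie close together. Of the NF-kB list genes past 2-fold with a promoter in the table, 2 of 4 held it, and of the cytokines and chemokines past 2-fold 3 of 7, namely CXCL1 and CXCL2 and, higher with nm23-H1, CXCL10. The stretches of TNFAIP3 (chr6:137867184-137867221, plus strand), NFKBIA (chr14:35404813-35404838, minus strand) and CXCL2 (chr4:74099255-74099281, minus strand) are shown as examples among the genes of these lists that hold the consensus and were past 2-fold with nm23-H2, with the matches in capitals. The cytokine genes with larger differences, IL1A, IL1RN and IL1B, did not hold it in this window.
TNFAIP3: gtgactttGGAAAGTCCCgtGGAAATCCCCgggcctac
NFKBIA: actggcttGGAAATTCCCcgagcctg
CXCL2: ggagctccGGGAATTTCCCtggcccgg
TNFAIP3 held 2 matches on the reverse strand, NFKBIA 1 on the reverse strand, and CXCL2 a pair that overlap, 1 on each strand.

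Genes of mucosal defence followed the cytokines. Of 12 measured, 7 were at least 2-fold higher with nm23-H2 and 1 with nm23-H1, with a median of -1.19. In 5 of the 12, 1 array was below the floor, so these count as measured only through the array where they were high. Besides PI3 and LCN2, the complement genes were prominent. C3, the central complement protein, read 207 signal units with nm23-H2 and was below the floor with nm23-H1 (3.28) and vector (3.43), at least 7.31-fold higher. C1S read 109 signal units with nm23-H2 and was below the floor on the other arrays (at least 3.85-fold) and CFB, factor B, read 35.0, 112 and 14.3 (3.20-fold). Complement transcripts were thus highest with nm23-H2, and nm23-H1 and vector lay at or close to the floor. The further probe set of CFB differed by 0. SLPI, a secreted protease inhibitor, and MUC1, a membrane mucin, were 2.34-fold and 2.22-fold higher. PLAC8 lay the other way with 81.2 signal units with nm23-H1 and 34.7 with nm23-H2, 2.34-fold higher with nm23-H1 and brightest with vector.

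The differentiation genes of squamous epithelium divided. The mucosal keratins KRT4 and KRT13 were the largest differences towards nm23-H1, while KRT16, a keratin of activated and wounded epithelium, read 506, 1447 and 809.7 signal units, 2.86-fold higher with nm23-H2. The other 10 measured keratins were less than 2-fold apart, from KRT18 (1656 and 3032 signal units) at -0.87 to KRT1 (197 and 100.2) at 0.97 and KRT15 (5001 and 2637) at 0.92. With 2 of 13 higher with nm23-H1 and 1 with nm23-H2, the keratins thus had a median of -0.03. Proteins of the cornified envelope, the cross-linked shell of dead squamous cells, lay mostly on the nm23-H2 side, with 6 of 12 at least 2-fold higher there, 0 with nm23-H1 and a median of -1.37. SPRR1A read 215, 1884 and 2707 signal units and SPRR1B 477, 3971 and 3177, so that for these small proline-rich proteins nm23-H1 was the low array and vector the near neighbour of nm23-H2. SPRR3 (at least 4.85-fold) and SPRR2B (at least 4.03-fold) were below the floor with nm23-H1 and above it on both other arrays, and TGM1, the transglutaminase that cross-links the envelope, read 36.6, 208 and 85.8 signal units (5.67-fold). CSTA, cystatin A, was 3.41-fold higher. IVL, involucrin, was below the floor with nm23-H2 (34.4 and 12.7 signal units), and PPL, periplakin, did not differ by 2-fold (649 and 654). Small proline-rich genes are similar in sequence, and their probe sets may share transcripts.

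The AP-1 element TGACTCA was in 4.16% of all promoters in the table and in 2.69% of those of measured genes. It was in 11 of the 240 promoters of genes higher with nm23-H2 (4.58%) and 8 of the 236 of genes higher with nm23-H1 (3.39%). Among the 11 were SPRR1A (chr1:152983965-152983987), SPRR1B (chr1:153031054-153031076) and SPRR3 (chr1:153001571-153001593), neighbours on the plus strand of chromosome 1, each with the element on the reverse strand, in capitals.
SPRR1A: tggtagtgTGAGTCAtgtgtgac
SPRR1B: acaaaagtTGAGTCAacaggtgg
SPRR3: gtggacagTGAGTCAggcccagg
NME1 held the element among the genes higher with nm23-H1. The S100 genes, whose proteins bind calcium, had 4 of 13 at least 2-fold higher with nm23-H2, all 4 on chromosome 1, and 0 with nm23-H1. Their median was -0.61, the bound of S100P. After S100A8 and S100A9 came S100A7, psoriasin, with 18.6, 203 and 117 signal units (at least 7.16-fold) and S100A12 with 26.4, 61.1 and 77.0 (at least 2.16-fold). S100A4, a gene named for metastasis, lay the other way without reaching 2-fold (196 and 127 signal units), as did S100A13 (715 and 568).

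Receptors and anchors of the basement membrane were higher with nm23-H2. Of 16 measured integrins, laminins and hemidesmosome genes, 6 were at least 2-fold higher with nm23-H2 and 0 with nm23-H1, with a median of -0.71. ITGA5, the fibronectin receptor subunit, read 47.6 signal units with nm23-H1, 272 with nm23-H2 and 102 with vector (5.72-fold). ITGB4, the hemidesmosome integrin, read 728, 1934 and 1115 (2.66-fold), and LAMB3, a laminin chain of epithelia, 1349, 2951 and 959 (2.19-fold). ITGA3 (2.45-fold), LAMC1 (2.14-fold) and COL7A1 (2.02-fold) were the others. The 3 further probe sets of ITGB4 ranged from -0.70 to 0. Of 25 actin and focal adhesion genes, 4 were at least 2-fold higher with nm23-H2 and 0 with nm23-H1 (median -0.53), namely MYH9, non-muscle myosin (186, 638 and 459 signal units), ZYX, zyxin (134, 402 and 167), ACTN1, alpha-actinin (440, 1221 and 879) and TPM4 (45.6, 118 and 69.0). The vector array lay between the transfectants in each. Of 18 junction genes, GJB5, a connexin (2.97-fold), and PKP3, a plakophilin (2.41-fold), were higher with nm23-H2, though the further probe set of PKP3 differed by -0.06. CLDN1, the tight junction protein claudin 1, read 185, 88.2 and 86.3 signal units, 2.10-fold higher with nm23-H1. None of 16 mesenchymal and matricellular genes reached 2-fold, the brightest being TGFBI (1933 and 2604 signal units) and SNAI2 (144 and 205).

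Secreted proteases went both ways. Collagenases and a stromelysin were higher with nm23-H1, with MMP10 at 112, 7.40 and 157 signal units (at least 3.96-fold) and MMP13 at 111, 11.4 and 11.6 (at least 3.92-fold) after MMP1. These 3 genes are neighbours on chromosome 11. For MMP10 vector sided with nm23-H1 and for MMP13 with nm23-H2. MMP28 (at least 2.98-fold), the inhibitor TIMP3 (2.32-fold) and ADAM8 (at least 2.09-fold) were higher with nm23-H2. The list of 16 had a median of 0.32, but 0.10 after quantile normalization, against 0.04 for all genes. In 5 of the 16, 1 array was below the floor, so these count as measured only through the array where they were high. Among 18 kallikreins, plasminogen activators and serpins, 5 were higher with nm23-H2 and 2 with nm23-H1 (median -0.52). SERPINB1, an elastase inhibitor, read 164, 1269.7 and 202 signal units (7.76-fold), PLAU, urokinase, 177, 677 and 406 (3.82-fold), and SERPINE2 67.3, 219 and 121 (3.25-fold). SERPINB13 read 187, 63.6 and 176 (2.94-fold higher with nm23-H1), while its 5 further probe sets ranged from 0 to 0.80.

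Ligands of the TGF-beta family were also divided. Of 17 genes of TGF-beta and BMP signalling, 3 were higher on each side. In 10 of the 17, 1 array was below the floor, so these count as measured only through the array where they were high. The list median of 0.24 is itself a bound, that of SMAD7 (33.4 and 16.3 signal units). It moved to the other side of the all-gene median with the hybridisation controls. The BMP ligands were on the nm23-H1 side, with BMP7 at 452, 109 and 268 signal units (4.17-fold) and BMP2 at 125 signal units and below the floor on both other arrays. The 3 further probe sets of BMP7 ranged from 0.24 to 2.06. ID3, a target of BMP receptors, was on the nm23-H1 side too (113 with nm23-H1, below the floor with nm23-H2 and 125 with vector). ID1, a further BMP target, read 839.6 and 679.6 signal units and did not reach 2-fold. Activin was on the nm23-H2 side, with INHBA at 158 signal units and below the floor with nm23-H1 (4.82) and vector (6.97), at least 5.59-fold. Its further probe set differed by -0.14. FST, follistatin, which binds activin, was 3.01-fold higher and TGFB1 2.02-fold higher with nm23-H2.

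Besides VEGFA, hypoxia-response genes past 2-fold numbered 4 of 24, with 0 higher with nm23-H1 and a list median of -0.27. NDRG1 read 687, 2813 and 609 signal units (4.10-fold), BHLHE40 40.5, 111 and 75.9 (2.74-fold) and EGLN3, an oxygen sensor, 27.7, 61.0 and 28.7 (at least 2.15-fold). STC2, which is also on the ATF4 list, was the fourth. SLC2A1, the glucose transporter GLUT1 (1702 and 1605 signal units), ADM, adrenomedullin (360 and 282), and HIF1A (395 and 353) were less than 2-fold apart. In glycolysis 2 of 25 genes were higher with nm23-H2, against 3.99% of all measured genes. They were HK2, hexokinase 2 (54.0, 151 and 65.6 signal units), and PYGB, a glycogen phosphorylase (159, 433 and 9.19). The further probe set of HK2 differed by 0. TXNIP was higher with nm23-H1.

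**Figure D3:**
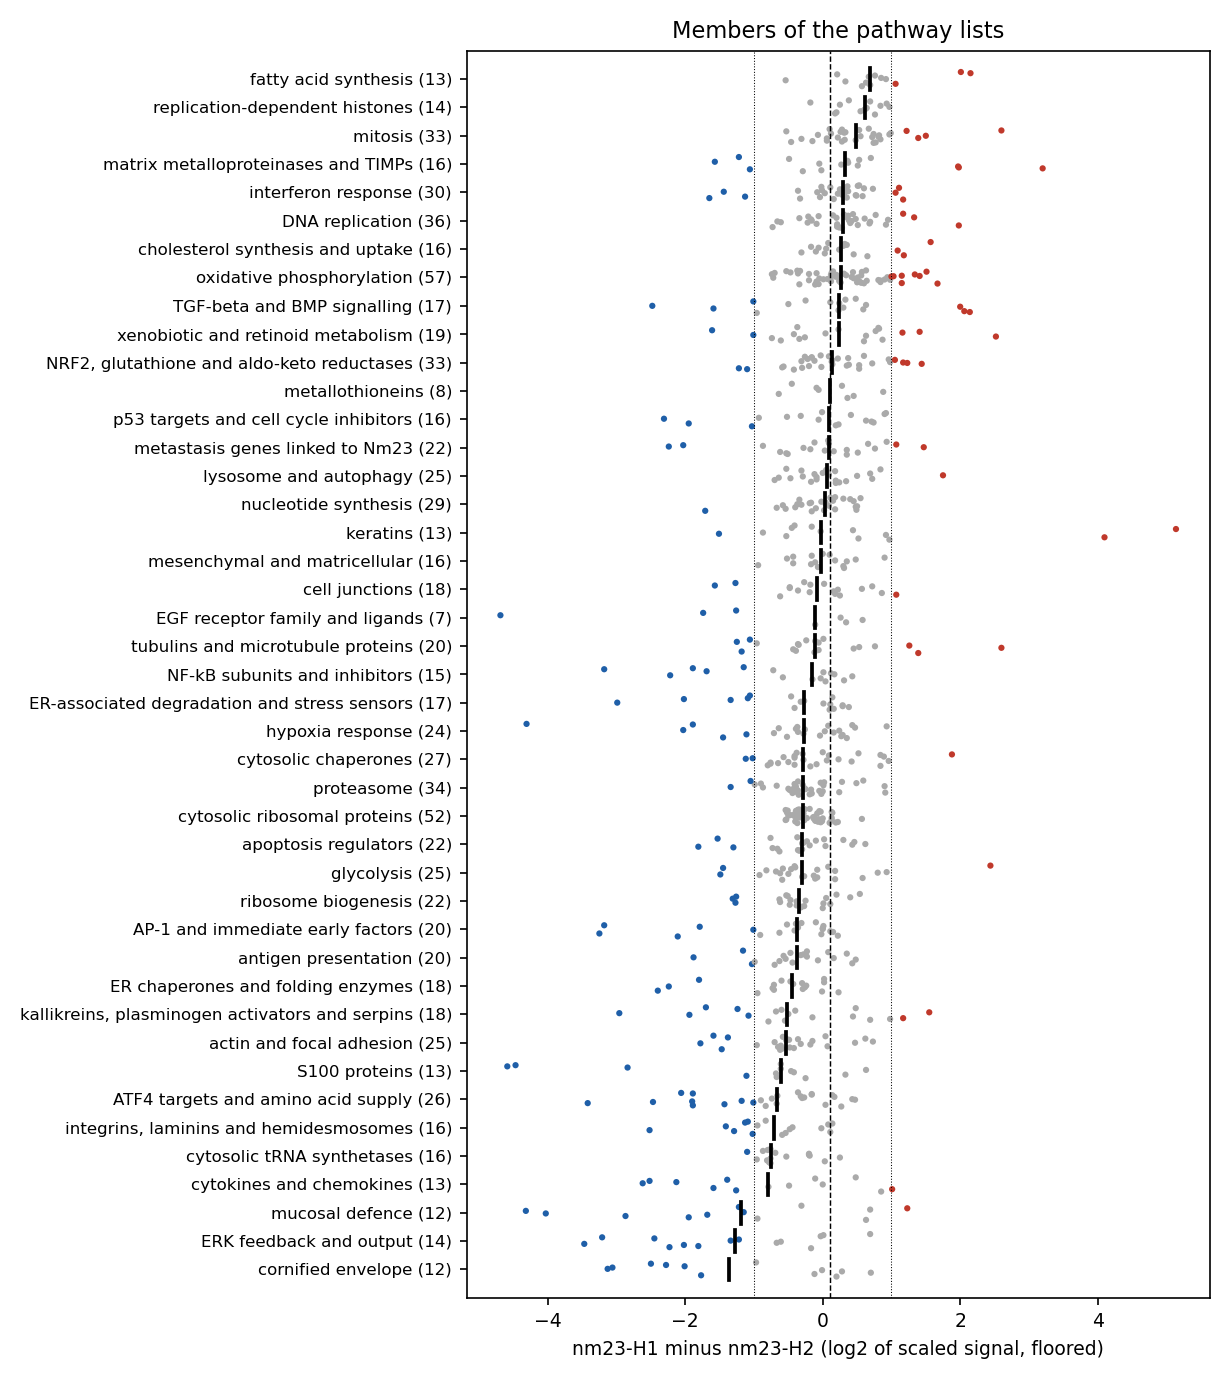
Difference nm23-H1 minus nm23-H2 (x axis, log2) of every measured member of each pathway list with at least 7 measured genes (rows, number of genes in brackets), 1 point per gene, red or blue past 2-fold. Black bars are list medians and the dashed line is the median of all genes, 0.10. Cornified envelope, ERK feedback and mucosal defence genes lie lowest, and fatty acid synthesis, histones and mitosis highest.

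Genes higher with nm23-H1 were found among lipid synthesis, the respiratory chain and the cell cycle. Fatty acid synthesis, driven by the factor SREBP-1, had 3 of 13 genes at least 2-fold higher with nm23-H1, 0 with nm23-H2, and 12 of 13 above the median of all genes (list median 0.69). SREBF1, which encodes SREBP-1, read 479 signal units with nm23-H1, 119 with nm23-H2 and 416 with vector (4.04-fold). SCD, stearoyl-CoA desaturase, read 546, 123 and 673 (4.45-fold), and its 3 further probe sets differed by 1.55 to 2.39. In both, nm23-H2 was the low array. ACSL1 was 2.08-fold higher, and FASN (303 and 191 signal units) and ACACA (294 and 199), the core synthetic enzymes, were higher by less than 2-fold. FABP5 was the gene below the median (598 and 867 signal units). Of 16 cholesterol genes, 3 were higher with nm23-H1 and 0 with nm23-H2 (median 0.27, but 0.05 and on the other side of the all-gene median with plain _at probe sets), namely TM7SF2 (127, 42.8 and 116 signal units), DHCR7, the last enzyme of the pathway (415, 183 and 435), and INSIG1, which retains the SREBP escort protein in the ER (93.0, 43.7 and 135).

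Of 57 nuclear genes of oxidative phosphorylation, 7 were at least 2-fold higher with nm23-H1 and 0 with nm23-H2, with a median of 0.26 (0.36 after quantile normalization, with 10 and 0). ATP5MC1, a gene of the proton ring of ATP synthase, read 845, 265 and 477 signal units (3.18-fold), and UQCR10, a small subunit of complex III, 2906, 1021 and 2670 (2.85-fold). NDUFB3 (2.66-fold), NDUFC1 (2.54-fold), NDUFB4 (2.22-fold) and NDUFB2 (2.05-fold), accessory subunits of complex I, and ATP5MC3 (2.22-fold) were the others. The core subunits NDUFS1 (188 and 314 signal units) and NDUFV1 (1181 and 1915) of complex I and ATP5F1B of ATP synthase (4968 and 6275) lay the other way without reaching 2-fold.

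Mitosis genes had 4 of 33 at least 2-fold higher with nm23-H1, 0 with nm23-H2, and 25 above the median of all genes (list median 0.48). Besides STMN1, these were CKS2, a partner of cyclin-dependent kinases (1632, 578 and 1264 signal units), CDC25C, the phosphatase that starts mitosis (155, 59.2 and 119), and PTTG1, securin (1729, 743 and 1522). CDC25C had 2 further probe sets, at 0 and 0.17. CCNB1 (1275 and 1020 signal units), CDK1 (141 and 121) and PLK1 (273 and 227), the core drivers of mitosis, differed by less than 2-fold. In DNA replication 3 of 36 were higher with nm23-H1 and 0 with nm23-H2 (median 0.29): GINS1, part of the replicative helicase (224, 56.9 and 88.2 signal units), POLE2 (128, 50.7 and 178) and RPA3 (1559, 693 and 1313). Of 14 histone genes used in S phase, 13 lay above the median of all genes, none past 2-fold, with a median of 0.61. In 4 of the 14, 1 array was below the floor, so these count as measured only through the array where they were high. The brightest was H2BC12 (747, 492 and 1492 signal units). Vector was brighter than both transfectants for that gene. On the other side, 3 of 16 genes on the list of p53 targets and cell cycle inhibitors were higher with nm23-H2. They were GADD45A (31.3, 155 and 34.5 signal units), CDKN1A, which encodes p21 (75.1, 290.3 and 114), and BTG1 (2.05-fold). The list median was 0.09, with 8 genes above the median of all genes and 8 below it.

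Genes of protein synthesis and turnover showed small shifts. Of 52 cytosolic ribosomal protein genes none reached 2-fold. Their median was -0.29, below that of all genes, but with quantile normalization it was 0.05, marginally above the 0.04 of all genes, so their direction depended on the scaling. RPS10, the brightest, read 10156 and 13511 signal units. Of 22 ribosome biogenesis genes, 3 were higher with nm23-H2 and 0 with nm23-H1 (median -0.35): PES1 (2.48-fold), NOLC1 (2.42-fold) and RRP12 (2.39-fold), whose further probe sets ranged from -0.33 to -0.12 for NOLC1 and from -0.04 to 0.04 for RRP12. In the proteasome 2 of 34 were higher with nm23-H2, against 3.99% of all measured genes, with a list median of -0.28. They were PSMC6 (2.53-fold) and PSME4 (2.07-fold), whose further probe sets ranged from -0.03 to 0.36.

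Interferon-response genes were split, with 3 of 30 higher on each side and a median of 0.29. IFI27 (246, 772 and 164 signal units), IRF9 (93.7, 254 and 96.5) and IFI6 (2.18-fold) were higher with nm23-H2, and OASL (226, 104 and 225) and BST2 (112, 49.6 and 109.6) were among those higher with nm23-H1. In antigen presentation 3 of 20 were higher with nm23-H2 and 0 with nm23-H1 (median -0.38). They were HLA-E (26.2, 104 and 71.0 signal units, at least 3.67-fold), TAPBP, which loads peptides on class I molecules (214, 477 and 157), and CD74 (48.9, 99.9 and 16.6). The further probe set of TAPBP differed by 0. Apoptosis regulators had 3 of 22 higher with nm23-H2 and 0 with nm23-H1 (median -0.30), with BIK (71.5, 251 and 203 signal units) and BID (179, 439 and 167), which promote cell death, and MCL1, which prevents it (152, 437 and 162). The 4 further probe sets of MCL1 ranged from -0.50 to 0.17.

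The position of the genes in the genome (GRCh38.p14) was a further axis. Medians by chromosome ran from -0.19 for chromosome 22 (208 measured genes) to 0.24 for chromosome 20 (230 genes), against 0.10 for all genes. On chromosome 22, 33 genes (15.9%) were at least 2-fold higher with nm23-H2 and 8 (3.85%) higher with nm23-H1, and the median was -0.25 after quantile normalization. On chromosome 20 the counts were 7 and 18. Both BMP2 and BMP7, higher with nm23-H1, lie on chromosome 20, and so do PI3 and TRIB3, higher with nm23-H2. Against vector, chromosome 22 had medians of -0.18 with nm23-H1 and 0 with nm23-H2, both against the same vector array. The lowest window of 50 neighbouring genes in the genome ran from PMM1 to CHKB (chr22:41576900-50582849), with a median of -0.59, 12 genes higher with nm23-H2 and 3 with nm23-H1. SBF1 was its largest member, with 35.3, 203 and 163 signal units (5.74-fold), though its 4 further probe sets ranged from -0.84 to 0. GTSE1 (114, 51.4 and 71.0 signal units), CELSR1 (160.2, 79.7 and 88.7) and CERK (282, 113 and 176) lay the other way within the same window, so not all of its genes were lower with nm23-H1. The next lowest window that did not overlap it ran from UQCR10 to SH3BP1 on the same chromosome (median -0.38, with 12 and 3). The highest were from PSRC1 to NOTCH2 on chromosome 1 (chr1:109279556-120069662) and from SNRPB to CST4 on chromosome 20 (chr20:2461642-23689038), each with a median of 0.43. In the latter, which holds BMP2, 8 genes were higher with nm23-H1 and 0 with nm23-H2. Against the same vector array, both transfectants were higher in that window, with medians of 1.09 with nm23-H1 and 0.34 with nm23-H2.

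Several members of the groups above lie on chromosome 22, namely ATF4, XBP1, SDF2L1, MAFF, MYH9, TIMP3, BIK, BID, PES1 and ADSL, an enzyme of purine synthesis that was 3.26-fold higher with nm23-H2 (311, 1014 and 949.5 signal units). UQCR10 lies there too and was higher with nm23-H1. Without the genes of that chromosome the counts over all genes were 292 higher with nm23-H1 and 271 higher with nm23-H2. The ATF4 list then had 8 of 25 genes higher with nm23-H2 (median -0.66), the ER chaperones 2 of 16 (-0.45), the degradation and sensor list 4 of 16 (-0.13) and the apoptosis list 1 of 20 (-0.29). The part of chromosomal position in single genes' differences was not tested.

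**Figure D4:**
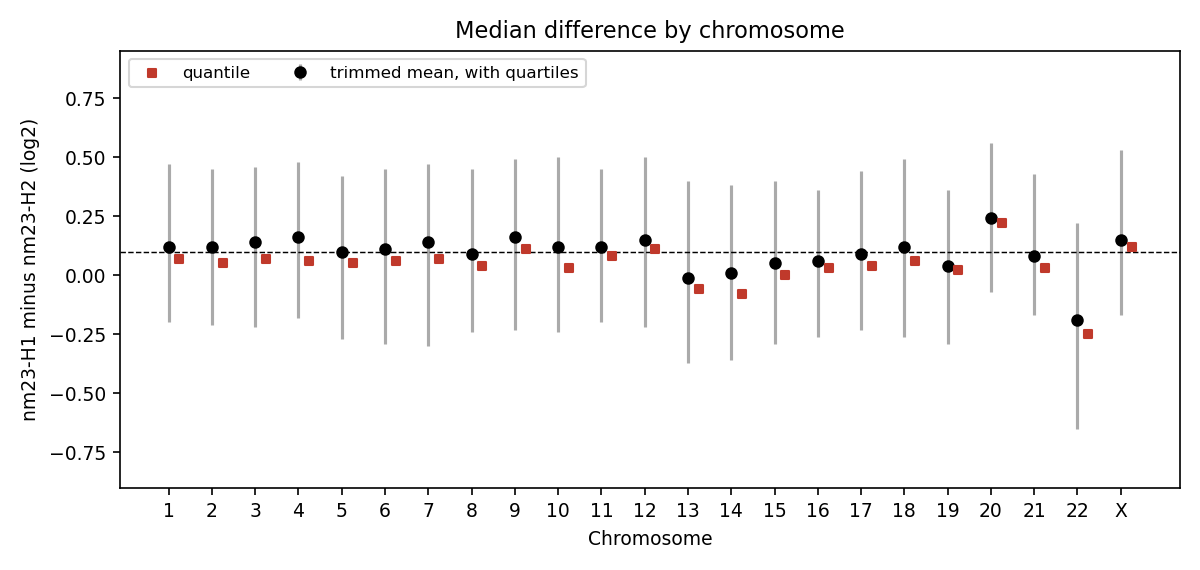
Median difference nm23-H1 minus nm23-H2 (y axis, log2) of the measured genes on each chromosome (x axis), with bars from the lower to the upper quartile for the trimmed mean scaling (circles) and the median after quantile normalization (squares). The dashed line is the median of all genes, 0.10. Chromosome 22 lies lowest and chromosome 20 highest with both scalings.

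The difference also changed with the brightness of the genes. In eighths of the genes by mean signal, the median difference was 0.11 in the first and dimmest and 0.47 in the second, at a typical signal of 36.7, and passed through 0.12 in the fifth to -0.08 in the eighth, at a typical signal of 734. Calls higher with nm23-H1 numbered 103 in the third eighth and 21 in the eighth, and calls higher with nm23-H2 67 and 46. After quantile normalization the medians lay between 0.02 and 0.08 in all eighths. Of the 300 and 304 genes called with the trimmed mean, 220 and 292 were also called in the same direction after quantile normalization. The part of brightness in the differences of single genes was not tested.

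**Figure D5:**
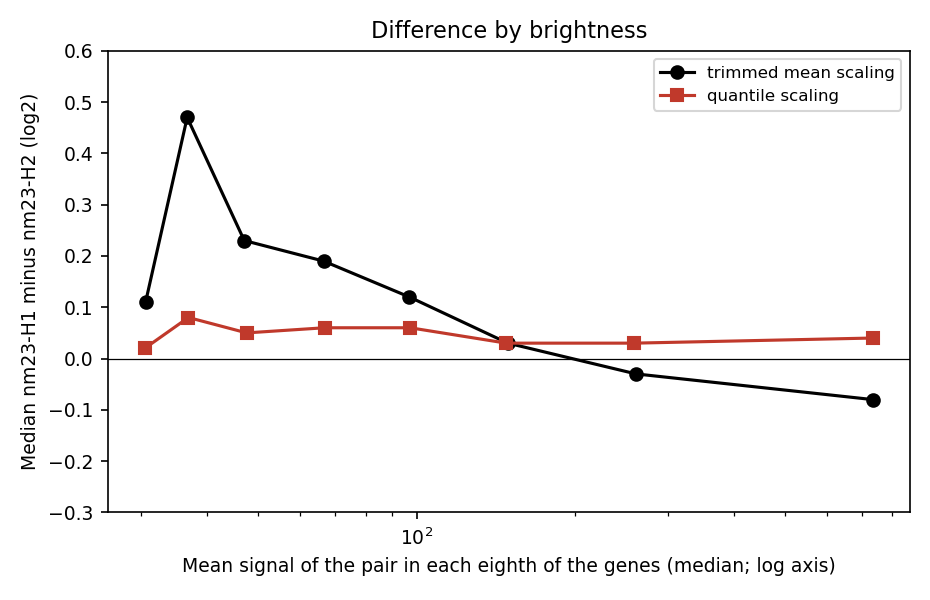
Median difference nm23-H1 minus nm23-H2 (y axis, log2) in each eighth of the measured genes ordered by mean signal of the pair (x axis, log scale), for the trimmed mean scaling (circles) and quantile normalization (squares). With the trimmed mean the medians run from 0.47 in the second eighth to -0.08 among the brightest, and with quantile normalization they stay between 0.02 and 0.08.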

How the data were processed

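Linear intensity signals per probe set were deposited for 3 arrays, made with MAS5 per the submitters' processing notes, with version and scaling target not given in the sources used here. Each array was scaled to a common mean of its values between the 2nd and 98th percentiles (nm23-H1 was multiplied by 1.03, nm23-H2 by 0.881, vector by 1.11). Signals under the pooled median, 28.3, were set to it and log2 was taken. Symbols came from the platform annotation (19071 probe sets with 1 symbol, 1043 with several, 2169 with none), and 19059 were updated through RefSeq. Each gene was read from its brightest probe set, with any of type _x_at used only where it had no other. A call was a difference of 2-fold or more. With 1 array a side there was no test, and the number of arrays limits the precision. The text names NME1 and NME2, the 15 largest each way whose brighter array reached 66.2 signal units (the 70th percentile) and with no other probe set contrary by 0.5 or more, up to 5 called genes per list or else its brightest 2, and up to 3 per extreme chromosome. Other list members, and genes of the lowest chromosome window, were named after their values were seen. The members and the 44 pathway and 5 marker lists were chosen with earlier results of these data known. The steps were tested on simulated data. Python 3.11.15, numpy 2.4.6, pandas 2.3.3, statsmodels 0.14.6 and matplotlib 3.10.9 were used.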

Additional observations from a re-analysis of the deposited data

Results flagged for a closer look

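Among probe sets that name no gene or several genes, which entered none of the counts, 2 did not pass the floor with vector and reached 4 times the floor or more with nm23-H2. They stand out only in that they give a signal with nm23-H2 that vector lacks. Over all such probe sets, 35 of the 854 measured ones without a symbol were at least 2-fold higher with nm23-H1 and 41 higher with nm23-H2, and of the 595 with several symbols 18 and 27.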

How the results depend on the processing

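The 300 genes higher with nm23-H1 and 304 higher with nm23-H2 became 171 and 499 as deposited, 2898 and 72 with the hybridisation controls, 1098 and 649 with a floor of the 25th percentile, 114 and 192 with one of the 70th, 175 and 171 with plain _at probe sets, and 17 and 48 at 4-fold. A lowess curve on brightness, chosen after seeing the data like the count without chromosome 22, gave 190 and 411. With the common median, quantile normalization, 16 added without a floor, the mean of probe sets, every probe set, or without chromosome 22, both counts stayed within 1.5 times. Of 158 named genes past 2-fold, 64 kept their direction and 2-fold under every alternative in which they were measured, and 26 of the 30 largest did. NME1 was under 2-fold as deposited (0.85). TPM4 was 0.17 with the hybridisation controls, and with plain _at probe sets RRP12 was 0.04 and MCL1 0.17, each against a negative main value and each read from another probe set than in the report. Of the 44 pathway lists, 31 stayed on the same side of the all-gene median under all alternatives. Keratins, cell junctions, cholesterol, NRF2 and p53 lists changed side with a floor or the choice of probe sets, 8 other lists with a scaling, and 43 list medians moved by more than the probe set SD with the hybridisation controls, which shift all genes. Where a signal is near the floor, only bounds could be given. No paired analysis was possible because each construct had 1 array.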

Other observations

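Genes of drug and oxidant metabolism had members on both sides. Of 33 measured genes of the NRF2 and glutathione list, 4 were at least 2-fold higher with nm23-H1 and 2 higher with nm23-H2 (median 0.13, its side of the all-gene median changing with a lower floor, the 25th percentile, and with plain _at probe sets). GSR, glutathione reductase, read 140.3 signal units with nm23-H1, 51.8 with nm23-H2 and 172 with vector. The glutathione transferases GSTM2 (280.5, 119.6 and 244) and GSTM3 (263, 117 and 839) lay the same way, with vector far above both for GSTM3. The probe set of AKR1C1, an aldo-keto reductase, was below the floor with nm23-H1 (9.23) and read 66.1 with nm23-H2. The 2 further probe sets of AKR1C1 differed by only -0.36 and -0.26. The transferase and reductase families hold similar copies whose transcripts a probe set may share. In xenobiotic and retinoid metabolism, EPHX1, epoxide hydrolase (599.6, 226 and 412 signal units), and DHRS3 (320, 143 and 193) were higher with nm23-H1, and MAOA, monoamine oxidase A (70.7, 216 and 99.7), was higher with nm23-H2.

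Microtubule genes were split as well, with 3 of 20 higher on each side. DYNLL1, a dynein light chain, read 2803, 1067 and 2338 signal units, 2.63-fold higher with nm23-H1, and TUBB2A, a beta-tubulin, 142, 338 and 147, 2.38-fold higher with nm23-H2. GPNMB, a lysosomal and membrane glycoprotein, read 126, 37.5 and 183 signal units. It was the only one of 25 lysosome and autophagy genes past 2-fold, against 7.92% of all measured genes past 2-fold either way. HSPB8, a small heat shock protein, read 105 signal units with nm23-H1 and was below the floor with nm23-H2 (5.11) and vector (8.86). None of the 8 measured metallothioneins, metal-binding proteins with similar copies, reached 2-fold, with MT2A at 8911, 9469 and 8217 signal units.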
